A study of Sus scrofa with 6 samples.

Results

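FOS, JUN, EGR2, NR4A3 and KLF4 are immediate early transcription factors, and they were read here in pig (Sus scrofa) femoral arteries whose puncture had been closed by a vascular glue or by a closure device. The members were all non-control probes of an Agilent 1-colour porcine array whose accession is a pig RefSeq transcript of 1 of these 5 genes. The rule found 9 of 43603 probes, for 5 of the 2384 genes that could be named on the array. There was 1 probe each for FOS (NM_001123113), JUN (NM_213880) and EGR2 (NM_001097488), and there were 4 for NR4A3 (NM_214247) and 2 for KLF4 (NM_001031782). The probes of a gene share its transcript and are not independent of each other.

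Each of the 6 arrays held total RNA of 1 artery sample taken ex vivo at the puncture site, on the left side in all 6. In the TAG group, of 3 arrays, the artery had been treated with TAG, the glue. In the Exoseal group, also of 3 arrays, it had been treated with Exoseal, a marketed device that places an absorbable plug outside the vessel. No unpunctured artery was among the samples. Breed, age, the time from closure to sampling and the number of animals are not given in the sources used here. No source states that the 3 arteries of a group were from different animals, so every p-value here is against a spread between arrays that may be technical. The title of Exoseal replicate 1 says Exoseal and its treatment field says TAG, so results are also given without it. By the file headers it was scanned together with the 3 TAG arrays (scan 1), while Exoseal replicates 2 and 3 shared another scan (scan 2).

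Immediate early genes are transcribed within minutes of a stimulus such as stretch, injury or a growth factor, without new protein synthesis, and most of their transcripts are short-lived. FOS and JUN pair through their leucine zippers to form the dimer AP-1. EGR2 and KLF4 bind DNA by zinc fingers, and NR4A3 is an orphan nuclear receptor. In the artery wall these genes are known to be induced in smooth muscle and endothelium after injury, and KLF4 is known as a repressor of contractile smooth muscle genes.

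The TAG arrays detected fewer probes of any kind. The flag by which the scanner software calls a spot well above background was set for 37.4% ± 3.38 of them in TAG and 64.3% ± 5.70 in Exoseal (SD, n = 3 each), with an exact two-sided permutation p = 0.1, the smallest that 3 against 3 allows. The lowest signal with that flag ran from 9.19 to 12.8 on the arrays of scan 1 and from 4.44 to 4.80 in scan 2, and negative control spots averaged processed signals of 2.33 to 3.14 in scan 1 and 1.03 to 1.08 in scan 2. Exoseal replicate 1 correlated at 0.791 and 0.854 with the other Exoseal arrays and at 0.830 to 0.853 with the TAG arrays, across probes, which are not replicates. The artery label was checked against smooth muscle and endothelial markers. All 4 smooth muscle genes with a probe (ACTA2, CNN1, DES and MYLK) and both endothelial ones (PECAM1 and CDH5) were above background on all 6 arrays.

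KLF4 and NR4A3 were higher in TAG by at least 1 probe each, and FOS, JUN and EGR2 did not pass the test. The KLF4 probe A_72_P538303 rose by 2.63 ± 0.57 on the log2 scale (SE, n = 3 per group, 6.20-fold) and the NR4A3 probe A_72_P637266 by 2.17 ± 0.57 (SE, 4.50-fold). Their adjusted p-values in limma were 0.0332 and 0.0464. In bulk samples such as these, fewer cells of a type and less RNA per cell cannot be told apart. So 2 of the 9 member probes passed, both higher in TAG, against 6.98% of all 22720 tested probes that passed in that direction and 9.61% in either. For 5 of 9 probes every TAG array lay above every Exoseal array, against 21.9% of all tested probes, and for 0 of 9 the reverse held, against 13.6%. Both calls also ended with scan as a block. All TAG arrays were in scan 1, so that fit, like the one within scan 1, compares them with Exoseal replicate 1 alone. The differences were then 1.47 for the KLF4 probe and 1.37 for the NR4A3 probe. In 5 of the 6 fits that left out 1 array both calls ended too. There limma called 0 of 22720 probes (4373 to 6124 with an unadjusted p under 0.05). The exception among these 6 was the fit without Exoseal replicate 1, in which 7757 probes passed in all. There both KLF4 probes and NR4A3 A_72_P637266 and A_72_P302674 passed, as did the FOS probe, whose TAG signals were all under the detection call.

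**Figure D1:**
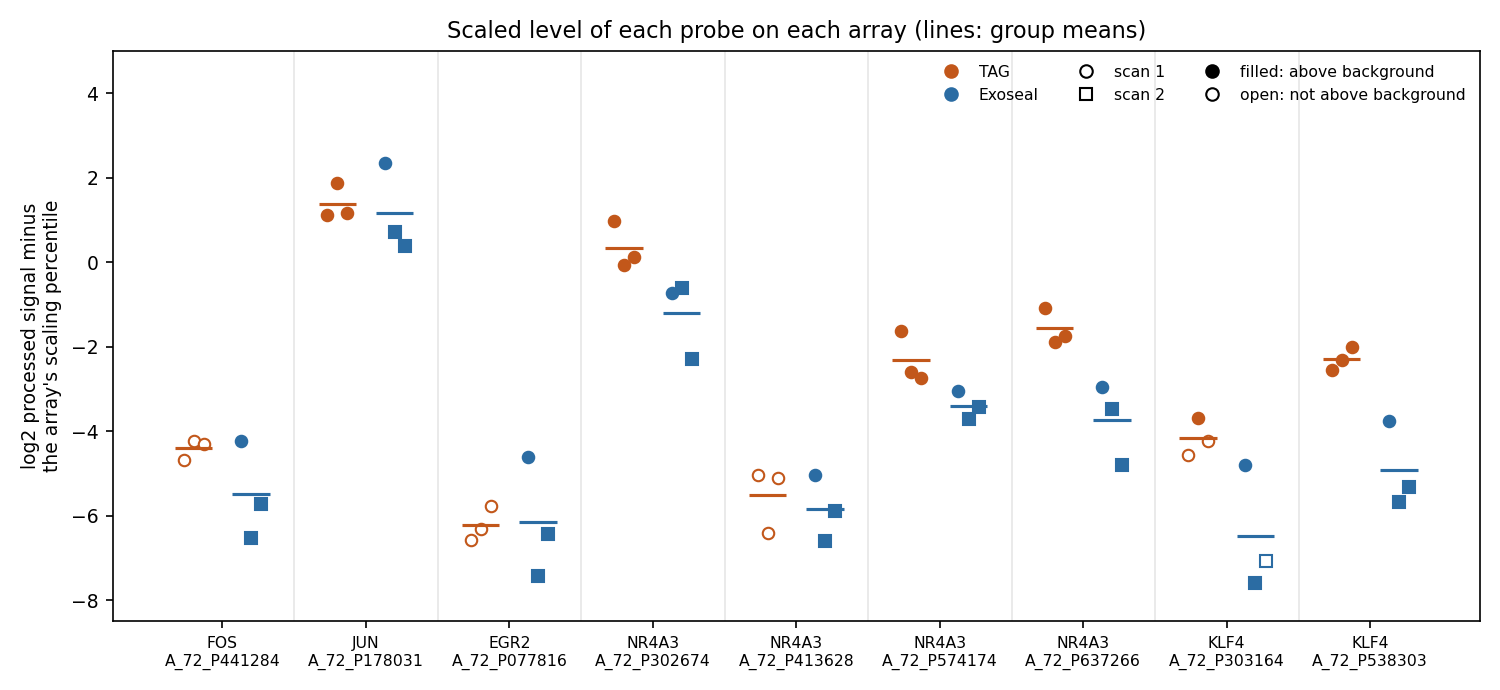
Scaled log2 level (y axis) of the 9 member probes on each array, with TAG in orange, Exoseal in blue, circles for scan 1, squares for scan 2, open symbols where the probe was not well above background and lines at group means. All 3 TAG points lie above all 3 Exoseal points for both KLF4 probes and for 3 of the 4 NR4A3 probes.

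Levels are given as the processed signal of the spot, in the scanner's intensity units, and as a scaled level, the log2 of that signal minus the log2 of the array's 75th percentile taken over the 12887 probes that every array detected. Levels of different probes are not comparable. Differences are scaled levels, TAG minus Exoseal. The median difference over all tested probes was 0.21. The 5 member probes detected on all 6 arrays ran from 0.23 to 2.63. With other scalings that median of all probes ran from -0.39 (median scaling) to 0.08 (75th percentile of all probes), and each member's difference is therefore also given relative to it.

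FOS, the partner that gives AP-1 its strongest dimers, lay at the detection limit. Its probe A_72_P441284 had processed signals of 10.8, 11.3 and 6.83 on TAG replicates 1, 2 and 3, none of them well above background (dark, in what follows). On Exoseal replicates 1, 2 and 3 it had 27.0, 14.6 and 9.97, all above background. The flag does not stand for 1 signal on all arrays: 11.3 did not carry it on TAG replicate 2 and 9.97 did on Exoseal replicate 3. On the scaled level FOS averaged -4.40 ± 0.24 in TAG and -5.50 ± 1.17 in Exoseal (SD, n = 3), and the groups overlapped, with Exoseal replicate 1 at -4.23 among the TAG arrays. FOS did not pass (1.1 ± 0.60, limma adjusted p = 0.259, and 0.88 above the median of all probes), and since the probe was dark on every TAG array no fold is given. Within scan 1 the difference was -0.17 and without Exoseal replicate 1 it was 1.73 (adjusted p = 0.0110 in limma). The TAG side of both values is an unmeasured level, so neither gives FOS a direction.

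JUN, the partner of FOS in AP-1, differed little between the groups in relation to its spread. Its probe A_72_P178031 was above background on all 6 arrays, with signals of 591, 777 and 301 in TAG and 2595, 2226 and 684 in Exoseal. Before scaling, the TAG arrays thus lay low, and 777 on TAG replicate 2 was above 684 on Exoseal replicate 3. After scaling, TAG averaged 1.38 ± 0.43 and Exoseal 1.15 ± 1.06 (SD, n = 3), and the groups overlapped. The difference was 0.23 ± 0.59 (adjusted p = 0.833 in limma). Its 95% confidence interval ran from -1.11 to 1.57, so with 3 arrays per group changes within that range are not excluded. The difference equalled the median of all probes to within 0.02. Exoseal replicate 1, at 2.35, was above the other 5 arrays, and Exoseal replicates 2 and 3, at 0.72 and 0.37, were below them all. The difference was therefore -0.97 within scan 1 and 0.83 without Exoseal replicate 1, and neither passed.

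EGR2, a zinc finger factor that also drives macrophage and myelin gene programmes, was at the level of the negative controls on the TAG arrays. Its probe A_72_P077816 had 2.90, 2.65 and 2.47 in TAG, none above background, where negative control spots averaged 3.14, 2.60 and 2.33, and 20.9, 7.88 and 6.12 in Exoseal, all above it. In raw signal the groups were apart, Exoseal being higher. That order was shared by 13043 of the 22720 tested probes. After scaling they were not apart, with TAG at -6.22 ± 0.41 and Exoseal at -6.15 ± 1.43 (SD, n = 3), and EGR2 did not pass (-0.07 ± 0.70, adjusted p = 0.960 in limma). Within scan 1, against Exoseal replicate 1 alone, the difference was -1.62, and without that array it was 0.71 (adjusted p = 0.286 in limma). The TAG side of all these differences is an unmeasured level, so none of them gives EGR2 a direction.

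FOS, EGR2 and 1 NR4A3 probe were dark on all 3 TAG arrays and detected on all 3 Exoseal arrays. This was so for 18.3% of all tested probes (4154). Such a probe entered the test through its Exoseal arrays alone. For none of these 3 did the Exoseal mean exceed the TAG detection limit on the scaled level, so no least fold can be given.

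**Figure D2:**
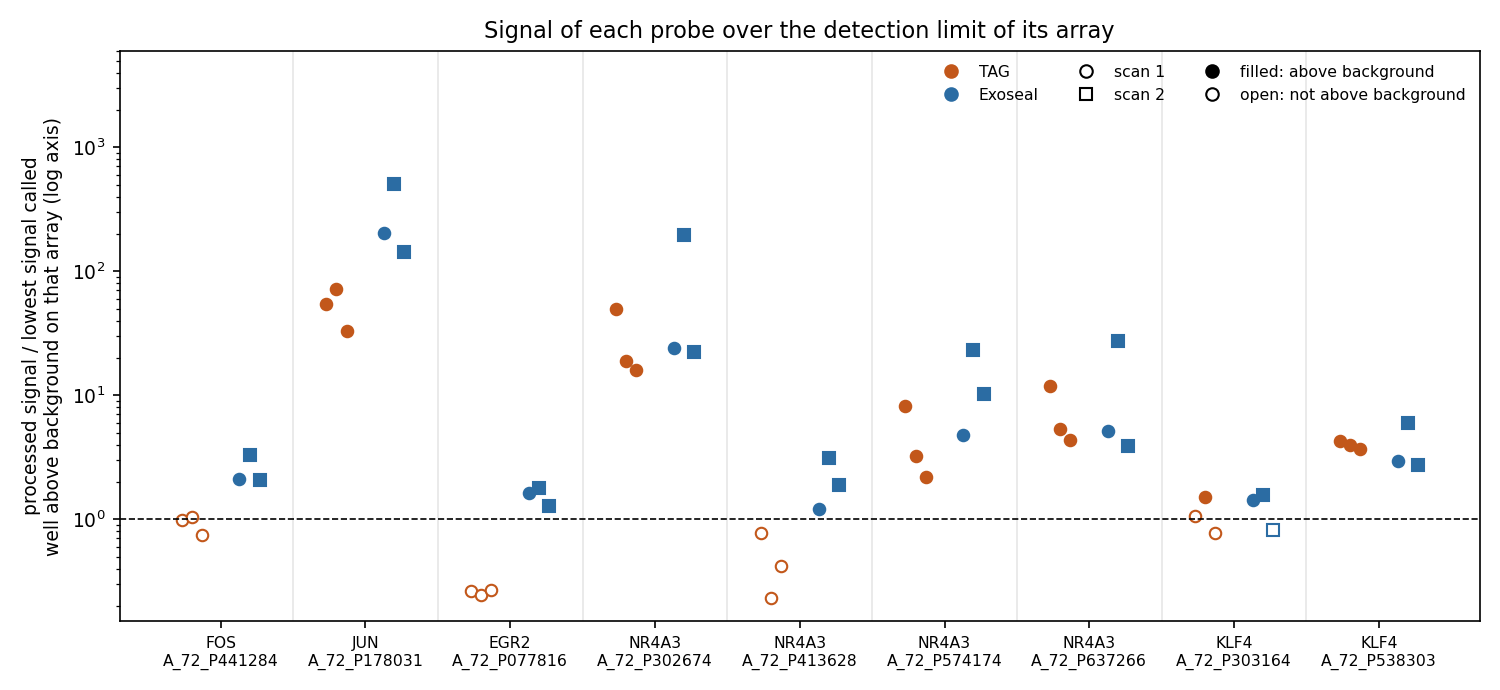
Processed signal of each member probe divided by the lowest signal called well above background on the same array (log y axis), with TAG in orange, Exoseal in blue, circles for scan 1, squares for scan 2 and open symbols where the flag is absent. EGR2 is at 0.245 to 0.269 of that limit on TAG arrays and at 1.27 to 1.77 times on Exoseal arrays, whereas the KLF4 probe A_72_P538303 is at 2.75 to 5.93 times on all 6.

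NR4A3, also called NOR-1, is an early response nuclear receptor that promotes growth of smooth muscle after injury. Its 3 probes detected on all 6 arrays had differences of 2.17, 1.56 and 1.07. Of all 4, only A_72_P637266 passed. It had processed signals of 130, 57.4 and 40.3 in TAG and 66.0, 122 and 18.8 in Exoseal, with scaled levels of -1.08, -1.88 and -1.74 against -2.94, -3.46 and -4.81. All TAG arrays were above all Exoseal arrays on the scaled level, and not in raw signal. The probe lay 1.96 above the median of all probes, and 7.41% of tested probes had a larger difference. Within scan 1 the difference was 1.37 (adjusted p = 0.103 in limma), without Exoseal replicate 1 it was 2.57 (adjusted p = 0.00175), and with median scaling it was 1.57 and did not pass (adjusted p = 0.108).

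The brightest NR4A3 probe, A_72_P302674, had signals of 536, 203 and 147 in TAG and 307, 877 and 108 in Exoseal. On the scaled level TAG had 0.96, -0.06 and 0.13 and Exoseal -0.73, -0.62 and -2.30, again without overlap. Its difference of 1.56 ± 0.57 (95% confidence interval 0.26 to 2.86) did not pass (adjusted p = 0.109 in limma). Probe A_72_P574174 was likewise detected on all 6 arrays without overlap of the groups, at 1.07 ± 0.47 (adjusted p = 0.167). Its scaled levels were -1.64, -2.61 and -2.73 in TAG and -3.05, -3.71 and -3.42 in Exoseal. These 3 probes ordered the arrays much alike, with Pearson's r over the 6 arrays of 0.971, 0.844 and 0.787 for the 3 pairs among them, as a description of probes of 1 transcript on the same arrays. TAG replicate 1 was the highest array for each of them.

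The fourth NR4A3 probe, A_72_P413628, was dark on every TAG array (signals of 8.42, 2.50 and 3.89) and lit on every Exoseal array (15.5, 14.0 and 9.0). Its difference was 0.32 ± 0.58 (adjusted p = 0.755 in limma), where the TAG side is not a measured level, and it turned to -0.63 with quantile scaling, -0.33 in the authors' deposited table and -0.48 within scan 1. Its r with the other NR4A3 probes was 0.334 to 0.557. As the mean of its 4 probes, the dark one included, NR4A3 had 1.28 and did not pass (adjusted p = 0.128 in limma).

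KLF4, a zinc finger factor that smooth muscle turns on as it leaves the contractile state, rose in TAG by 1 of its 2 probes. Probe A_72_P538303 was above background on all 6 arrays. Its processed signal was 46.9, 42.7 and 33.6 in TAG and 37.4, 26.4 and 13.2 in Exoseal. Before scaling the groups overlapped, since 33.6 on TAG replicate 3 lay under 37.4 on Exoseal replicate 1. Its scaled levels were -2.55, -2.31 and -2.0 in TAG and -3.76, -5.68 and -5.32 in Exoseal. The 3 TAG arrays lay close together (SD 0.28), and Exoseal replicate 1 lay between them and the other Exoseal arrays. The difference of 2.63 (95% confidence interval 1.35 to 3.91) was 2.42 above the median of all probes, and 4.02% of tested probes had a larger one.

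The second KLF4 probe, A_72_P303164, lay at the detection limit, above background on 1 of 3 TAG arrays and 2 of 3 Exoseal arrays. Its signals were 11.6, 16.5 and 7.12 in TAG and 18.3, 7.02 and 3.95 in Exoseal, and its scaled levels -4.56, -3.68 and -4.24 against -4.79, -7.58 and -7.06. The groups did not overlap, by a margin that rested on Exoseal replicate 1 (-4.79 against -4.56 on TAG replicate 1). Its difference of 2.32 ± 0.72 did not pass (adjusted p = 0.0713 in limma). On the TAG arrays its signal was only 0.775 to 1.52 times the lowest detected one, so most of its TAG side is not a measured level. Both probes ordered the arrays alike, with r = 0.961 over 6 arrays. As their mean, the dim probe included, KLF4 had 2.47 and passed (adjusted p = 0.0472 in limma). The r and the mean carry the limit of that probe.

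The size of the KLF4 difference changed with Exoseal replicate 1 and with the background correction. Within scan 1, against Exoseal replicate 1 alone, probe A_72_P538303 had 1.47 ± 0.42 (adjusted p = 0.0706 in limma) and A_72_P303164 had 0.63 ± 0.48 (adjusted p = 0.392). Without that array they had 3.21 ± 0.46 and 3.16 ± 0.48, and both passed. The TAG arrays were all in scan 1, so in that second comparison scan and treatment cannot be told apart. In the authors' deposited table, whose columns share their median, upper quartile and highest value, A_72_P538303 had 2.29 and passed when fitted with limma (adjusted p = 0.0156). With normexp background correction and quantile scaling the KLF4 probes had 0.96 (adjusted p = 0.0262 in limma) and 0.36 (0.222). NR4A3 A_72_P637266 had 1.08 (0.0408), and these were the smallest values of any setting run for these 3. That correction added an offset of 50 to each signal, which by construction narrows log2 differences of probes as dim as these. With quantile scaling alone the 3 probes had 2.29, 1.69 and 2.01.

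**Figure D3:**
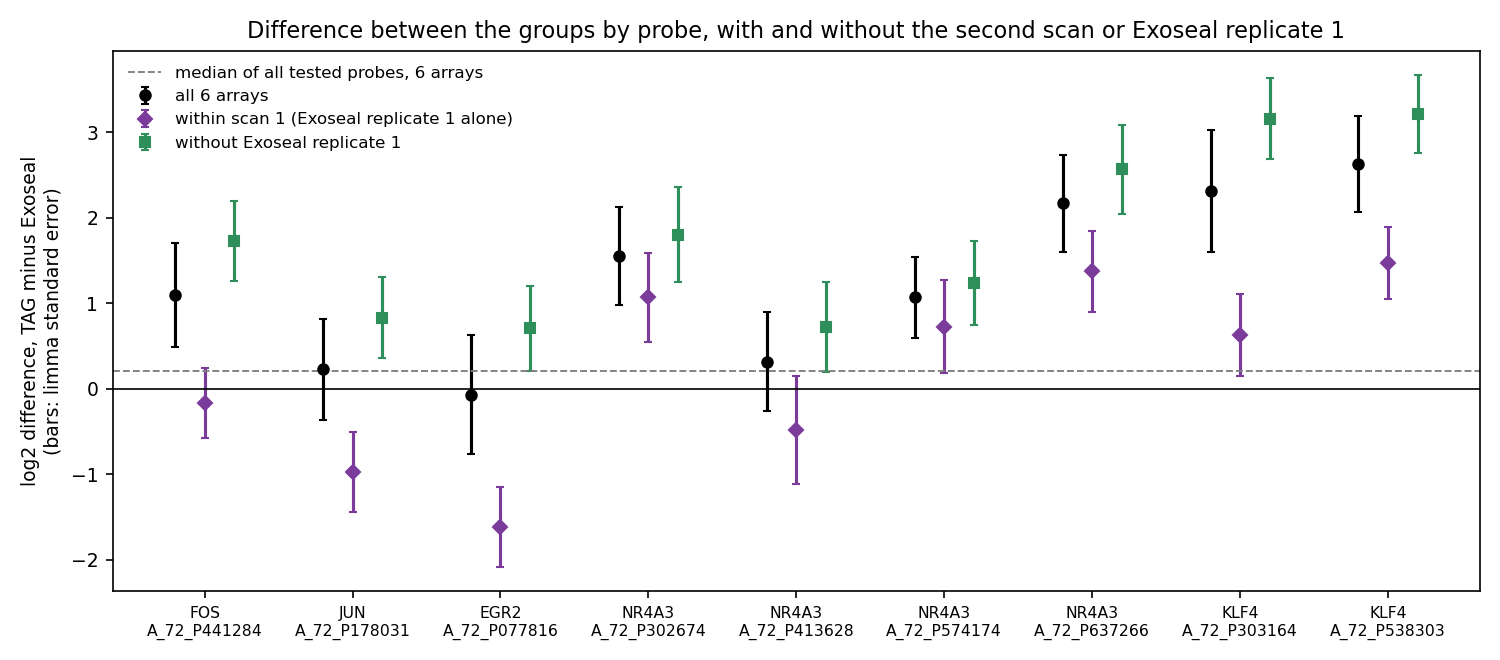
Log2 difference, TAG minus Exoseal, of each member probe (y axis, bars are limma standard errors) over all 6 arrays (black), within scan 1 (purple) and without Exoseal replicate 1 (green), with the median of all tested probes dashed. The 3 estimates of KLF4 A_72_P538303 are 2.63, 1.47 and 3.21, and those of EGR2 are -0.07, -1.62 and 0.71.

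Exoseal replicate 1 was the highest of the 3 Exoseal arrays for 8 of the 9 member probes, against 51.6% of all tested probes. The exception was NR4A3 A_72_P302674, where Exoseal replicate 2 was slightly higher. For 4 of the 9 it lay above the other Exoseal arrays and below all TAG arrays (12.7% of all tested probes), and for 2, JUN and EGR2, above all 5 other arrays (26.8%). Its place within scan 1, its treatment field and its sample cannot be told apart as the source of this.

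Differences between 2 probes of the same array do not depend on the scaling between arrays, and were compared for all 36 pairs of member probes. With 3 arrays per group the exact two-sided permutation test cannot go below 0.1, and after Benjamini-Hochberg adjustment over the 36 pairs no value was below 0.257. The log2 signal of JUN minus that of KLF4 A_72_P538303 was 3.67 ± 0.51 in TAG and 6.07 ± 0.36 in Exoseal (SD, n = 3), without overlap (exact permutation p = 0.1). JUN and KLF4 thus differed from each other in their change by 2.40 log2 units, whatever factor each array is scaled by. This gap still depends on the background correction, since the KLF4 probe is dim and the JUN probe bright. With normexp and quantile scaling KLF4 had 0.96 and JUN 0.16, and with normexp from negative controls 1.89 and 0.10. JUN against NR4A3 A_72_P637266 gave 2.95 ± 0.79 in TAG and 4.89 ± 0.61 in Exoseal, also without overlap (exact permutation p = 0.1). NR4A3 A_72_P637266 against KLF4 A_72_P538303 gave 0.72 ± 0.66 and 1.18 ± 0.91, which overlapped (exact permutation p = 0.5). Pairs with a probe that was dark on all TAG arrays are not described, since their TAG side is not measured.

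Within NR4A3, the log2 signal of A_72_P302674 minus that of A_72_P637266 was 1.91 ± 0.12 in TAG and 2.53 ± 0.31 in Exoseal, without overlap (exact permutation p = 0.1). The log2 signal of A_72_P574174 minus that of A_72_P637266 was -0.76 ± 0.22 in TAG and 0.35 ± 0.91 in Exoseal, also without overlap (exact permutation p = 0.1). For A_72_P302674 minus A_72_P574174 it was 2.67 ± 0.17 and 2.18 ± 0.99, which overlapped (exact permutation p = 0.6). The ratio between probes of this transcript thus differed between the groups for some pairs and not for all, in a test that stood at its floor. The KLF4 pair differed by -1.88 ± 0.45 in TAG and -1.56 ± 0.47 in Exoseal and overlapped (exact permutation p = 0.5).

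Markers of other cells moved between the groups alongside KLF4 and NR4A3. The summed linear level of the 4 smooth muscle markers, in multiples of the array's scaling percentile, was 59.3 to 74.3 in TAG and 27.8 to 33.3 in Exoseal. CNN1 and DES carry most of it (4.88 and 4.72 on the log2 scale in TAG). CNN1 did not pass by its brightest probe (0.87), while its other tested probe had 2.63. MYLK was below 0 without passing (-1.24). The sum of the 6 macrophage markers with a probe was 1.88 to 2.67 in TAG and 5.06 to 9.37 in Exoseal. LYZ and AIF1 carry most of the macrophage sum in Exoseal, and 3 of the 6 genes were above 0 without passing, C1QA at 0.82, CD14 at 0.36 and CD163 at 0.24. Of the tested markers, ACTA2 and DES rose (2 of 4 smooth muscle genes), LYZ and AIF1 fell (2 of 6 macrophage genes), CDH5 fell (1 of 2 endothelial genes) and ACTA1 rose (1 of 8 skeletal muscle genes), each by its brightest probe; the other ACTA1 probes ran from -1.80 to 2.51. Of all tested probes 6.98% passed as higher in TAG and 2.64% as lower, and for 35.5% the groups did not overlap. Within scan 1, against Exoseal replicate 1 alone, CDH5 had -1.52 and LYZ -3.14. With the mean of probes ACTA1 had 0.43 (adjusted p = 0.724 in limma) and AIF1 -1.46 (0.0797), and neither passed. The sums of the 2 endothelial markers were 0.565 to 1.05 in TAG and 1.73 to 5.68 in Exoseal. They hold PECAM1 by its brightest probe (-1.43, adjusted p = 0.178 in limma), while its other tested probe had 2.54. The sums of the 8 skeletal muscle markers were 7.68 to 9.14 in TAG and 2.77 to 5.05 in Exoseal. The skeletal muscle sum in TAG is mostly ACTA1: 4 of the 8 genes were above 0, and the median of the list was -0.18. The neutrophil and the T and NK cell sums overlapped, at 0.115 to 0.194 against 0.0467 to 0.141 and at 0.188 to 0.236 against 0.0717 to 0.225, and CD4 was at background on all 6 arrays. Fat markers also overlapped (11.2 to 11.5 against 8.77 to 16.2), and the single fibroblast marker DCN had 28.6 to 32.3 and 11.2 to 19.0. The part of these cells in the KLF4 and NR4A3 differences was not tested.

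Other genes of the early response were read from lists, each gene by its brightest tested probe. Of the AP-1 and ATF partners only ATF4, a stress-induced factor, could be matched to a tested probe (1 of 18 fixed). It did not pass (0.79 ± 0.47, adjusted p = 0.292 in limma), and its other 5 tested probes ran from 0.27 to 2.22. Among 7 other early response transcription factors 1 rose and 0 fell, against 6.98% and 2.64% of all tested probes, with a median of 0.38. That was KLF15, a Krüppel-like factor tied to quiescent muscle and to glucocorticoids, at 2.53 ± 0.54 (adjusted p = 0.0332 in limma). KLF15 did not pass with median scaling (1.94, adjusted p = 0.0832). Against Exoseal replicate 1 alone, the comparison made both with scan as a block and within scan 1, it had 2.16. The other 6 did not pass. By their brightest probes they ranged from -0.18 for KLF10, a TGF-beta induced repressor, to 1.18 for MYC, the growth regulator. NR4A2, the close relative of NR4A3, had 0.23. Further tested probes of these genes gave other values: KLF2 had 3.03, KLF6 2.08 and 0.28, MYC 2.31 and 1.69, and KLF10 1.16 and -0.71.

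Of 16 other early response genes of the feedback, secreted and signalling kind, 1 rose and 0 fell, near the 6.98% and 2.64% of all tested probes, with a median of 0.57 and 11 above 0. CTGF, a matrix-bound growth factor, rose by 2.56 ± 0.49 (adjusted p = 0.0297 in limma). It did not pass with median scaling (1.96, adjusted p = 0.0519), and against Exoseal replicate 1 alone it had 1.94. The genes that did not pass included NFKBIA, the inhibitor of NF-kappa B, at 1.59, RGS2, a brake on G protein signalling, at 1.66, PTGS2, cyclo-oxygenase 2, at 0.42 and IL6 at -1.40. Neither of the 2 upstream kinases with a tested probe passed. MKNK1, a kinase downstream of ERK and p38, had 1.31 ± 0.48 (adjusted p = 0.105 in limma). MAP2K1, which activates ERK, had -1.44 ± 0.55 (adjusted p = 0.117 in limma). The other tested MAP2K1 probes had -1.53 and 0.76, and the mean of its probes had -0.74 (adjusted p = 0.417 in limma).

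Among 13 genes commonly listed as AP-1 targets, 0 rose and 3 fell, against 2.64% of all tested probes that fell, with a list median of -0.45. They were HMOX1, haem oxygenase 1, at -3.46 ± 0.53, MMP9, gelatinase B, at -2.45 ± 0.52, and SPP1, osteopontin, at -1.94 ± 0.52 (adjusted p = 0.0264, 0.0326 and 0.0486 in limma). All 3 are known from macrophages among other cells, and of the macrophage markers LYZ and AIF1 fell while C1QA, CD14 and CD163 were above 0; their part in the result was not tested. The other HMOX1 probe had 1.35 and the other MMP9 probe -0.09, and as the mean of their probes neither passed (-1.06 and -1.27). SPP1 did not pass within scan 1 (-1.12, adjusted p = 0.112) or with median scaling (-2.54, adjusted p = 0.0703), and MMP9 did not with Exoseal replicate 1 counted as TAG (-1.27, adjusted p = 0.302). Of 5 contractile genes that KLF4 is known to repress, 2 rose and 0 fell, against 6.98% and 2.64% of all tested probes, with a median of 0.87. ACTA2, smooth muscle actin, rose by 2.36 ± 0.44 and DES, desmin, by 1.65 ± 0.41 (adjusted p = 0.0289 and 0.0410 in limma), and with median scaling neither passed (1.76 and 1.06). DES also did not pass with quantile scaling (0.75, adjusted p = 0.210) or in the authors' deposited table (0.73, 0.189). Against Exoseal replicate 1 alone, as within scan 1 or with scan as a block, DES had 1.47 and ACTA2 1.86. CNN1, calponin, had 0.87, MYLK, myosin light chain kinase, -1.24, and MYOCD, the coactivator myocardin, -0.39. Further tested probes had 2.63 for CNN1, -0.62 for MYOCD, 0.20, 2.87 and 3.13 for DES and 2.36, 2.68 and 1.96 for ACTA2.

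**Figure D4:**
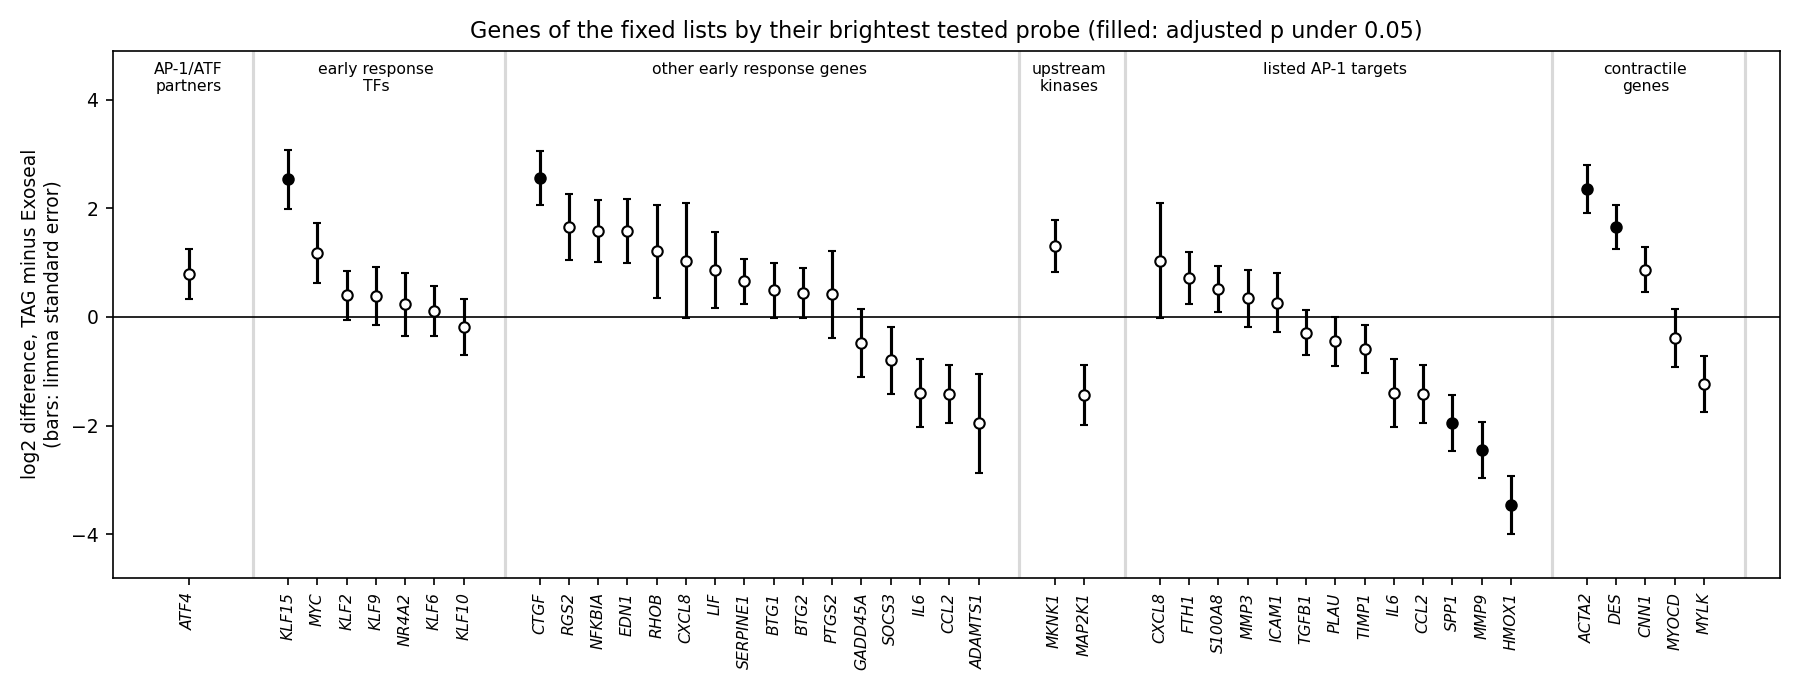
Log2 difference, TAG minus Exoseal, of each list gene by its brightest tested probe (y axis, bars are limma standard errors, filled symbols passed an adjusted p of 0.05). KLF15 and CTGF are the filled points among early response genes, at 2.53 and 2.56, and the filled points among the listed AP-1 targets are SPP1, MMP9 and HMOX1, at -1.94, -2.45 and -3.46.

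The named genes whose scaled level followed each member most closely over the 6 arrays were sought among 1614 others by Pearson's r. With 6 arrays from 2 scans such values are high for many genes and are a description only. For KLF4 A_72_P538303 they were SLC16A1, C1S and APOA1 (each r = 0.996), and 226 genes exceeded 0.9. For NR4A3 A_72_P302674 they included PAFAH1B1 and HSPA6 (both 0.954), and 21 genes exceeded 0.9. JUN was followed by RNF4, ANG and PSMD4 (0.955, 0.950 and 0.949), with 19 genes over 0.9. FOS was followed by ZNRD1, GNL1 and INPP4A (0.998, 0.996 and 0.988) and EGR2 by RAB27A, SERPINA1 and PPP1R10 (0.999, 0.998 and 0.996), with 199 and 114 genes over 0.9. The member probes of FOS and EGR2 were dark on the TAG arrays, so their TAG points are not measured levels.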

How the data were processed

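Total RNA was labelled with Cy3 and hybridised to 1 array per sample, per the labels' protocols. The deposited files of each array give an intensity per spot, measured with Agilent Feature Extraction 11.0.1.1 per the file headers, and the processed signal among them is background-subtracted and detrended within the array and not scaled between arrays. The authors' deposited table holds log2 values scaled between arrays by a method not given in the sources used here. From these, 43380 of 43603 probes were kept (the others had outlier spots alone on some array), and no spot was saturated. Probes were named by unversioned RefSeq accession through a table of assembly Sscrofa11.1, which named 5435 probes (2384 symbols). No source used here gives the build behind the array, and coordinates are left out.

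The log2 processed signal was scaled by each array's 75th percentile over probes detected on all 6 arrays, because the TAG arrays detected under 50% of probes. Probes well above background on at least 3 arrays were fitted with limma 3.58.1 in R 4.3.3 (lmFit, eBayes, no covariates, two-sided, Benjamini-Hochberg over 22720 probes, threshold 0.05), after a test on simulated data. Alternatives changed scaling, background correction (normexp on the median spot signal, since no mean signal was in the files), filter, spots, scan, probe summary, source, grouping and arrays. Both normexp settings, that from negative controls included, added an offset of 50 to the signal. Named genes were all member probes, up to 4 called genes per list (with none, the 2 of smallest p) and the 3 genes most like each member (1 of them is not reported here), and other list genes given as examples or extremes were chosen after their values were seen. The members and lists were chosen with earlier results of these data known. The number of arrays limits the precision.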

Additional observations from a re-analysis of the deposited data

How the results depend on the processing

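Over all probes limma called 2184 (72.6% higher in TAG) in the reported setting. It called 1049 with median scaling (46.9% higher), 10381 with normexp from negative controls (95.8% higher), 4184 with Exoseal replicate 1 counted as TAG, 0 without the filter (14039 with an unadjusted p under 0.05), and 0 to 7757 on leaving out each array in turn. Quantile scaling gave 3152 calls (51.7% higher), and the values in the authors' table gave 2918 (58.3% higher). Of the member probes 2 were called. It was 1 with median scaling, with the brightest probe or with the mean of probes per gene, and 0 without the filter or with scan as a block. Scan as a block and within scan 1 give the same differences, each against Exoseal replicate 1 alone. It was 8 with normexp from negative controls, 4 with Exoseal replicate 1 as TAG, and 0 to 5 on leaving out an array. FOS, which no TAG array detected, is among the 8, the 4 and the 5, and EGR2 and NR4A3 A_72_P413628, alike in this, are among the 8.

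With the replicate number as a block 1118 probes and 1 member probe were called, KLF4 A_72_P538303 (adjusted p = 0.0480 in limma). Same-numbered arrays deviated with correlations of -0.18, 0.09 and -0.07, so the numbers were not taken as pairs.

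Both KLF4 probes and NR4A3 A_72_P302674, A_72_P574174 and A_72_P637266 stayed above 0 in every alternative run. FOS turned to -0.17 with scan as a block and within scan 1. JUN turned to -0.37 with median scaling, to -0.97 with scan as a block and within scan 1, to -0.02 without TAG replicate 2 and to -0.16 without Exoseal replicate 3, with up to 0.83 on leaving out other arrays. EGR2 turned to 1.40 with normexp from negative controls, 1.11 with Exoseal replicate 1 as TAG, 0.11 without TAG replicate 1 and 0.71 without Exoseal replicate 1, with down to -0.70 on leaving out other arrays. NR4A3 A_72_P413628 turned to -0.28 with median scaling, -0.63 with quantile scaling, -0.066 with normexp and quantile scaling, -0.48 with scan as a block and within scan 1, -0.33 in the authors' table and -0.060 without Exoseal replicate 2, with up to 0.76 on leaving out other arrays. The cause of these turns was not tested. The detected share stayed lower in TAG without any 1 array. Signals near background limit FOS, EGR2 and the dim NR4A3 and KLF4 probes.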
